A study of Mus musculus with 12 samples.

Results

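Fgf23, Itgb4, Shank3, B4galnt4, Csgalnact1 and Wdr66 were followed because their transcripts were among the most reduced in mouse Ba/F3 cells that had received wild-type ETV6, set against cells that had received ZsGreen alone. They are 6 of 56748 genes in the deposited count table, and all 6 were among the 14794 genes with enough reads to be tested. They were chosen by their log2 fold change in ETV6 WT against ZsGreen, as large falls outside the neutrophil genes, so that contrast is given here as a description, with no test.

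Ba/F3 is a mouse line labelled as pro-B cells that needs interleukin-3 (IL-3) to grow, and the cells of all 12 libraries carried NRAS G12D, an active RAS oncoprotein. The 4 groups differed in the construct: ETV6 I209S P214L, ETV6 P214L or wild-type ETV6 (ETV6 WT), each followed by an internal ribosome entry site and ZsGreen, or the fluorescent protein ZsGreen alone as the control. Every group was sorted into medium lacking IL-3, fed once more and collected on day 3, and each has 3 poly-A RNA libraries. The study asked whether the second change, I209S, which destroys the nuclear export sequence that P214L gives ETV6, brings transcripts back to the state seen with ETV6 WT. Nothing in the labels shows that libraries of 1 group are separate cultures, so p-values measure the spread between these libraries only, which may be technical.

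ETV6 is an ETS-family transcription factor that binds DNA holding the letters GGAA and lowers transcription of the genes it binds, by forming polymers and by bringing in corepressor complexes with histone deacetylases. In blood it is needed for haematopoietic stem cells and for platelet production, and inherited ETV6 mutations cause low platelet counts and a predisposition to leukaemia. The 6 genes belong to unrelated pathways: a secreted hormone, an adhesion receptor subunit, a synaptic scaffold, a pair of Golgi glycosyltransferases and an axoneme protein.

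In the deposited table (mouse build mm39) Fgf23 spans chr6:127049865-127058371, Itgb4 chr11:115865535-115899238, Shank3 chr15:89383826-89444464, B4galnt4 chr7:140641017-140652313 and Wdr66 chr5:123390165-123465547, all on the plus strand. Csgalnact1 spans chr8:68809433-69187798 on the minus strand. All 6 are protein-coding genes, and no pair of them shares a chromosome. Annotated genes that overlap them took few reads: over the 12 libraries Gm15857 and Rpl35a-ps6, on the opposite strand inside Wdr66, had 52 and 39 counts, Gm15609, opposite Shank3, had 32, and 1700125H03Rik, opposite Csgalnact1, had 11. Whether counting used strand is not known, so reads of these pairs cannot be told apart, but their totals are small beside those of the genes they overlap in P214L and ZsGreen cells.

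The promoter windows are shown because the genes were put forward as candidates for direct repression by an ETS factor, whose core letters are GGAA. RefSeq promoter entries (build GRCm38.p6, 250 bases before the start of the gene to 50 after it, plus strand) were found for 4 of the 6 genes. The windows are chr6:127072652-127072951 for Fgf23, chr15:89499358-89499657 for Shank3, chr7:141060728-141061027 for B4galnt4 and chr5:123253538-123253837 for Wdr66. Capitals mark GGAA on either strand, so that a match on the opposite strand reads TTCC.
Fgf23: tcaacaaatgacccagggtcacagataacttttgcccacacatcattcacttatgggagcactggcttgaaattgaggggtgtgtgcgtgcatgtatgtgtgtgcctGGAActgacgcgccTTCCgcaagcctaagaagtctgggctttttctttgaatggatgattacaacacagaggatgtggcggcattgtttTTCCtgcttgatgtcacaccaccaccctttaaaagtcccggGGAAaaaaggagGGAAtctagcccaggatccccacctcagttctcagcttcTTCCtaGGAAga
Shank3: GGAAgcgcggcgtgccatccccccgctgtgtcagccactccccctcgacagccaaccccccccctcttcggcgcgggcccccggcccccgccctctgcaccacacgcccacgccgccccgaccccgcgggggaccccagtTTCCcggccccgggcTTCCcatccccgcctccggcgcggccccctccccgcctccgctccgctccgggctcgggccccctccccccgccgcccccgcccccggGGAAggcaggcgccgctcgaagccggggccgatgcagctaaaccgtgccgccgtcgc
B4galnt4: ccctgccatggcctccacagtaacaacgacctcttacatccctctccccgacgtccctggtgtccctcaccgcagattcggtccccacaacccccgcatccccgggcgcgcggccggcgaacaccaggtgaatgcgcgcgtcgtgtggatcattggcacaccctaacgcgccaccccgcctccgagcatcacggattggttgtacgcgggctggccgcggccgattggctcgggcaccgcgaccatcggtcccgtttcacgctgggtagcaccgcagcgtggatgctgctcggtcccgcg
Wdr66: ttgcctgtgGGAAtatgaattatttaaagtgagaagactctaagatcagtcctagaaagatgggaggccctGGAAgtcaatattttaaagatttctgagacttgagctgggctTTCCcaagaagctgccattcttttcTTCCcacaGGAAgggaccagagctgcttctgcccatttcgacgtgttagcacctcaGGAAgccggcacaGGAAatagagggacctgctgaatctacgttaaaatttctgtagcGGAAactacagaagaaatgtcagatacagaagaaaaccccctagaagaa

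The windows differed widely in these letters. Wdr66 held 8 matches of GGAA over both strands, and 3.72% of the 32851 RefSeq promoter windows of the same length held at least as many. Fgf23 held 7, a number reached by 8.02% of all windows, Shank3 held 4, reached by 46.3%, and B4galnt4 held 0. The median over all windows was 3, and 96.0% of them held at least 1 match. The longer letters CCGGAA, CCGGAAGT and GGAAGGAA, searched on both strands, overlap GGAA and were in none of the 4 windows, against 14.9%, 3.89% and 3.79% of all windows. The base composition differed too, with 49.0% G and C in the Fgf23 window, 81.0% in Shank3, 68.0% in B4galnt4 and 44.3% in Wdr66. These are matches of letters only, and no binding was measured.

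Library totals lay between 14301683 and 18607595 counts. The first 2 principal components of all tested genes held 40.8% and 14.2% of the variance, and on the second 1 library of ZsGreen, of ETV6 WT and of I209S P214L, replicate 1 in each, stood apart from the other 9. Etv6 transcript, which cannot be divided here into construct and endogenous RNA and may miss reads of a construct from another species (the labels do not give its species), was 112, 88.6 and 96.5 CPM (counts scaled to library size) in I209S P214L, 103, 98.4 and 108 CPM in P214L and 122, 103 and 102 CPM in ETV6 WT cells, against 87.4, 77.9 and 79.8 CPM in ZsGreen cells. Among markers of pro-B cells, Il7r, Rag1, Dntt and Igll1 had no read in any library, and Pax5, Ebf1, Rag2, Blnk and Vpreb1 were below the filter on low counts. Cd79a and Cd79b were present at low levels, and Ptprc (CD45) averaged 729, 460, 690 and 331 CPM in I209S P214L, P214L, ETV6 WT and ZsGreen cells. The labelled pro-B identity therefore rests on few of its markers in these libraries. The data are bulk RNA, so fewer cells that express a gene and less RNA of it per cell cannot be told apart.

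In the contrast that chose them, Fgf23 and Shank3 fell to a smaller percentage of their ZsGreen level than the other 4 genes. Fgf23 in ETV6 WT cells was at 0.769% of its ZsGreen level (95% counting interval 0.558 to 1.03%) and Shank3 at 1.31% (0.696 to 2.26%). Itgb4, B4galnt4, Csgalnact1 and Wdr66 were at 6.84%, 6.56%, 6.77% and 6.70%, folds of 14.6 to 15.2. The reads left did not follow these percentages. Summed over the ETV6 WT libraries Fgf23 kept 44 reads, Csgalnact1 36, B4galnt4 46, Wdr66 56 and Itgb4 453, while Shank3 kept 13. The 6 were not simply the steepest falls. Among 10488 protein-coding genes with a mean of at least 1 CPM in these groups, ranked by log2 fold change, they stood at ranks 5 (Fgf23), 11 (Shank3), 23 (B4galnt4), 24 (Wdr66), 25 (Csgalnact1) and 26 (Itgb4). The other 20 genes of the top 26 include S100a8, S100a9 and Mmp8 of the neutrophil marker list. They also include genes outside that list, such as the stefins and Lcn2, though a gene off the list may still belong to neutrophils. Also off it were Slc14a1, a urea transporter, and Alox5, a leukotriene enzyme. Slc14a1 had no read in ETV6 WT cells and 5.33 CPM in ZsGreen cells. Alox5 had 2.91 CPM in ETV6 WT and 46.3 CPM in ZsGreen cells. Just inside the choice Itgb4 had a log2 fold change of -3.86, just outside it Il21r had -3.82, Gcsam -3.70 and Piwil2 -3.63, and Ccm2l, ranked above the last 4 genes and not chosen, had -3.94. In this contrast 18.2% of all tested genes were called lower and 19.5% higher.

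The comparison that shares no library with the choice was I209S P214L against P214L cells. Its fit, though, took the filter on low counts and the estimate of spread from all 12 libraries. All 6 genes fell in this comparison, each called at an adjusted p under 0.05 by edgeR's quasi-likelihood test with Benjamini-Hochberg adjustment over 14794 genes. In that comparison 17.1% of all tested genes were called lower and 15.9% higher. The median log2 fold change of the 6 genes was -4.27, against 0.00 over all tested genes. By log2 fold change they ranked between rank 26 (Shank3) and rank 79 (Csgalnact1) from the lowest. In all 6 every library of I209S P214L lay below every library of P214L, as in 24.7% of tested genes.

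**Figure D1:**
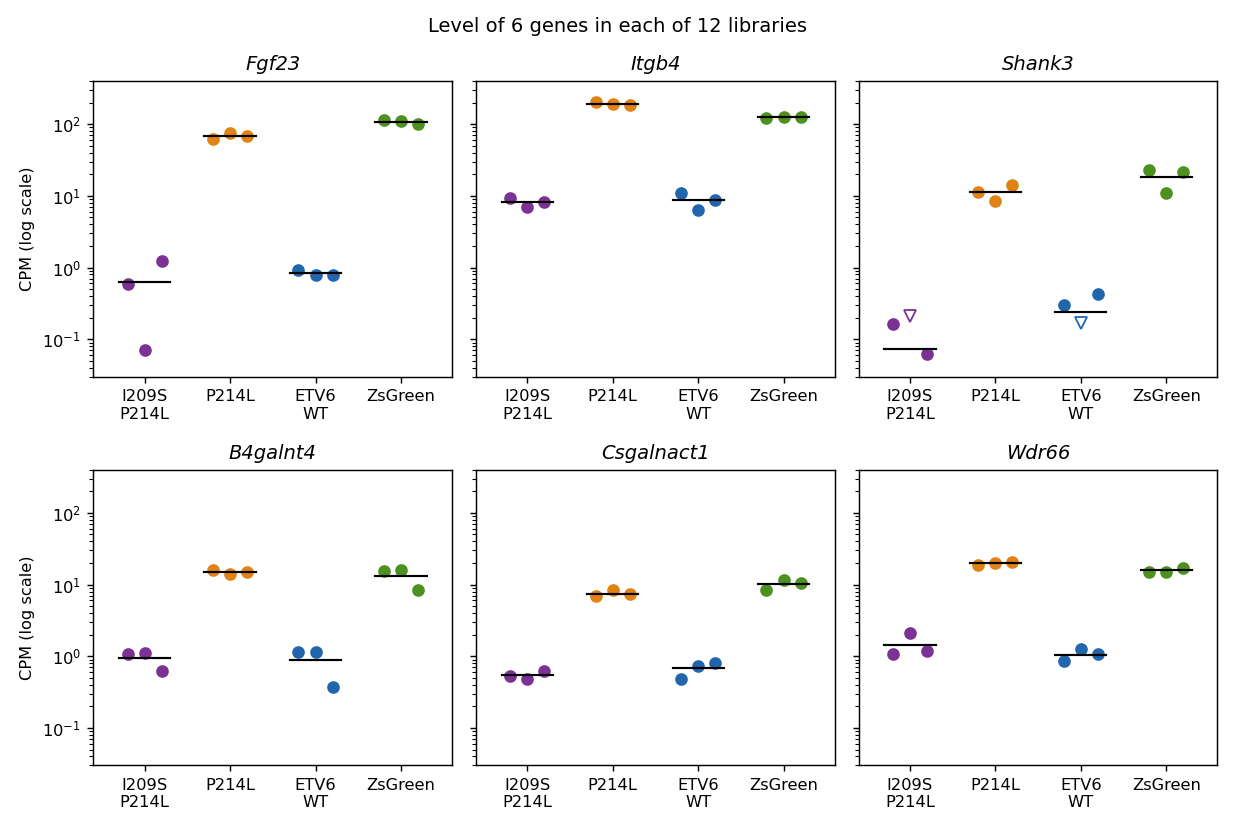
Level of each gene in the 12 libraries, as CPM on a log axis, with groups in the order I209S P214L, P214L, ETV6 WT and ZsGreen. Points are libraries, black lines are group means, and open triangles mark libraries with no read, drawn at the CPM of 3 reads in that library. In every panel the libraries of I209S P214L and ETV6 WT lie below all libraries of P214L and ZsGreen.

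The other comparisons share libraries with the choice. I209S P214L against ZsGreen uses the same 3 ZsGreen libraries, and all 6 genes were called lower there, where 20.7% of tested genes were. P214L against ETV6 WT uses the same 3 ETV6 WT libraries, and all 6 were called higher there, where 14.6% of tested genes were. I209S P214L against ETV6 WT called none of the 6 in either direction, where 0.0338% of tested genes, 5 in all, were called. None of the 6 had an unadjusted p under 0.05 in that comparison, where 512 tested genes (3.46%) did, and DESeq2 (which gave Shank3 no adjusted p) and limma-voom called 0 of them as well. P214L against ZsGreen called Itgb4 higher, where 3.47% of tested genes were called higher, and Fgf23 lower, where 1.61% were called lower, and left the other 4 uncalled. With replicate 1 of ZsGreen, ETV6 WT and I209S P214L left out together, the counts of called genes in these comparisons and in I209S P214L against P214L were the same.

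**Figure D2:**
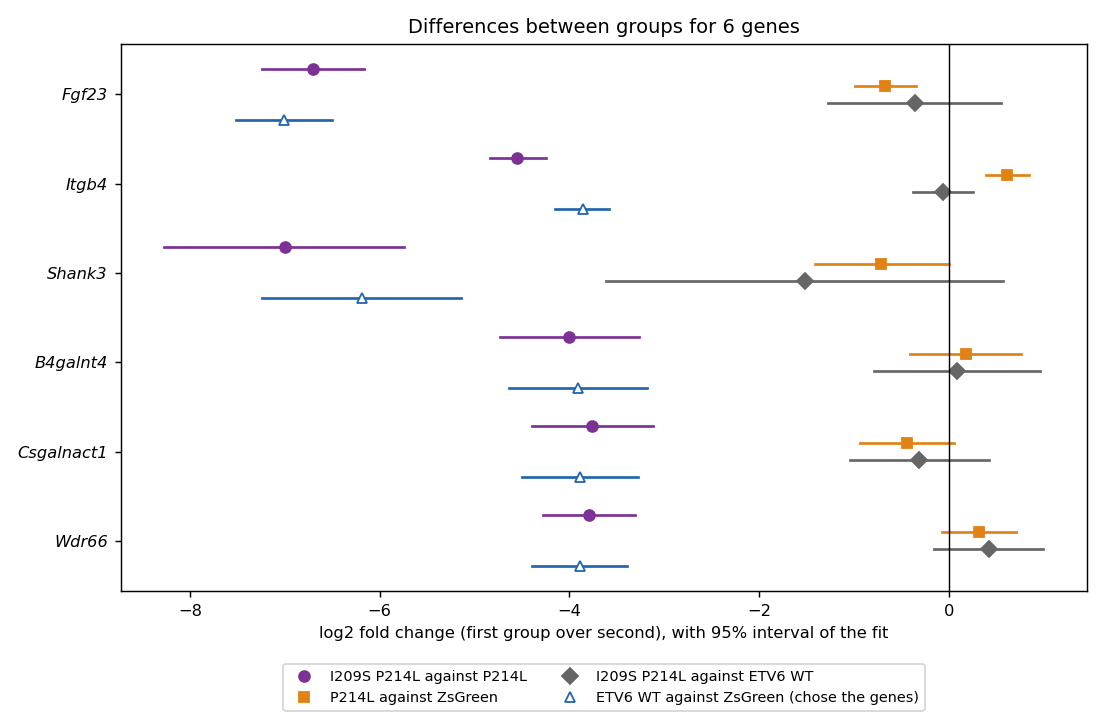
Log2 fold change of each gene in 4 comparisons, first group over second, with the 95% interval of the edgeR fit as a line. Filled symbols are comparisons that did not choose the genes, and open triangles show ETV6 WT against ZsGreen, which did. I209S P214L against P214L lies between -7.00 and -3.76, while the intervals of I209S P214L against ETV6 WT all include 0.

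Fgf23 encodes fibroblast growth factor 23, a hormone made mainly by osteocytes that makes the kidney excrete phosphate and lowers active vitamin D, through FGF receptors and the co-receptor Klotho. It was an abundant transcript in control cells: per kilobase it stood at 59.8 CPM in ZsGreen cells, above 94.9% of tested genes. Fgf23 had 0.591, 0.0697 and 1.23 CPM in I209S P214L cells (11, 1 and 20 reads), against 62.3, 75.2 and 67.5 CPM in P214L cells. The I209S P214L libraries differed widely among themselves, and all lay far below P214L. It had 0.916, 0.798 and 0.798 CPM in ETV6 WT cells (15, 14 and 15 reads), against 114, 111 and 99.6 CPM in ZsGreen cells. Per kilobase its level exceeded that of 9.95% of tested genes in I209S P214L, 91.3% in P214L and 13.2% in ETV6 WT cells.

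Fgf23 fell by 6.70 ± 0.25 on the log2 scale (SE) in I209S P214L against P214L (edgeR adjusted p = 2.04e-12), to 0.946% of the P214L level (95% counting interval 0.646 to 1.34%). Without replicate 3 of I209S P214L the change was -7.54. It was also lower in P214L than in ZsGreen cells, by 0.67 ± 0.15 on the log2 scale (edgeR adjusted p = 0.0154). All its P214L libraries lay below all its ZsGreen libraries, as in 12.2% of tested genes. The call of Fgf23 as lower in P214L was lost when replicate 1 or 3 of P214L or replicate 1 or 2 of ZsGreen was left out, with adjusted p = 0.111, 0.0783, 0.0654 and 0.0562. Against ZsGreen the change in I209S P214L was -7.37 (-8.21 without its replicate 3), and against ETV6 WT it was -0.36 with a 95% interval of -1.27 to 0.55, in libraries that overlap.

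The other genes of the phosphate axis did not follow Fgf23 as a group. Of 20 listed receptors, processing enzymes, transporters and regulators, 9 were tested, and in I209S P214L against P214L 3 rose, 2 fell and 4 were not called, with a median of 0.32. Of all tested genes 15.9% were called higher and 17.1% lower in that comparison, with a median of 0.00. Galnt3, the glycosyltransferase that protects FGF23 protein from cleavage, fell by 1.27 on the log2 scale (edgeR adjusted p = 5.77e-07). Furin, a protease of the family that cleaves it, rose by 0.70 (adjusted p = 4.72e-07), and Slc20a1, a phosphate importer, fell by 0.50 (adjusted p = 0.00263). The count of rises was 1 without replicate 3 of I209S P214L or replicate 2 of P214L. In ETV6 WT against ZsGreen 2 of the 9 rose and 2 fell, where 19.5% of all tested genes were called higher and 18.2% lower. The shares of all tested genes in these 2 comparisons also apply to the list counts below. Of 21 other FGF ligands 4 were tested, and 1 rose in both comparisons: Fgf11, an intracellular FGF homologue, had 53.6 CPM in I209S P214L and 29.7 CPM in P214L cells, and 50.5 CPM in ETV6 WT and 31.6 CPM in ZsGreen cells. Among markers of osteocytes and osteoblasts, Dmp1, Sost, Ibsp and Alpl had no read in any library. Runx2, a bone transcription factor that other cells also express and the only tested one of the 10 listed, averaged 60 CPM in I209S P214L and 39.3 CPM in P214L cells, and 58.2 CPM in ETV6 WT and 28.9 CPM in ZsGreen cells. It was called higher in both comparisons, with log2 fold changes of 0.61 (edgeR adjusted p = 1.2e-05) and 1.01 (2.91e-08).

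Itgb4 encodes integrin beta 4, which pairs with integrin alpha 6 to bind laminin and anchors epithelial cells at hemidesmosomes through plectin. Per kilobase it was still above 23.6% of tested genes in I209S P214L and 24.7% in ETV6 WT cells, against 87.2% in P214L and 79.5% in ZsGreen cells. Itgb4 had 9.35, 7.04 and 8.22 CPM in I209S P214L cells, against 205, 191 and 183 CPM in P214L cells. It had 10.9, 6.27 and 8.72 CPM in ETV6 WT cells, against 123, 127 and 127 CPM in ZsGreen cells. The low groups overlapped each other, and every P214L library stood above every ZsGreen library, as in 13.5% of tested genes.

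Itgb4 fell by 4.55 ± 0.14 on the log2 scale (SE) in I209S P214L against P214L (edgeR adjusted p = 1.21e-13), to 4.31% of the P214L level (3.89 to 4.76%). In P214L it was higher than in ZsGreen cells by 0.62 ± 0.11 (edgeR adjusted p = 0.0022), a fold of 1.54, the opposite direction to Fgf23. Against ZsGreen the change in I209S P214L was -3.93, and against ETV6 WT it was -0.06 with a 95% interval of -0.38 to 0.26, the narrowest of the 6 genes.

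Of 9 hemidesmosome and laminin-adhesion genes 7 were tested, and in I209S P214L against P214L 3 rose and none passed as lower, while in ETV6 WT against ZsGreen 4 rose and none fell. Plec, encoding plectin, rose by 1.35 on the log2 scale in I209S P214L against P214L (edgeR adjusted p = 4.83e-09), Lama5, a laminin chain, by 0.93 (1.41e-06), and Cd151, a tetraspanin that associates with laminin-binding integrins, by 0.58 (0.00133). Itga6, the only alpha chain that integrin beta 4 pairs with, was named after its values were seen: it averaged 1.69, 2.89, 2.72 and 4.2 CPM in I209S P214L, P214L, ETV6 WT and ZsGreen cells and was not called in either comparison, but was called lower in I209S P214L against ZsGreen (log2 fold change -1.30, adjusted p = 0.0147), where 4 of the 7 were called higher. Col17a1, a hemidesmosomal collagen also named after its values were seen, averaged 1.04 CPM in I209S P214L and 3.89 CPM in P214L cells (log2 fold change -1.91, adjusted p = 0.071). It was called lower under no filter, DESeq2, limma-voom, the fit of only the compared groups, the replicate block, without replicate 1 of ETV6 WT or of ZsGreen, and without replicate 1 of those groups and of I209S P214L together. Of 24 other integrin chains 15 were tested, of which 4 rose and 3 fell in each comparison. Itgal, the leukocyte integrin chain of LFA-1, fell by 2.97 (edgeR adjusted p = 1.56e-10), Itgam, the chain of Mac-1 on myeloid cells, fell by 5.13 (2e-07), and Itgb7, a lymphocyte homing chain, rose by 1.40 (1.81e-08). The 4 rises became 1 or 2 when any single library of I209S P214L or P214L was left out. Of 8 epithelial markers 5, Epcam, Krt5, Krt14, Krt18 and Trp63, had no read in any library.

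Because Fgf23 and Itgb4 moved in opposite directions in P214L against ZsGreen cells, the ratio of their counts within each library was computed after the values were seen and restates those opposite moves. It was 0.0632, 0.0099 and 0.149 Fgf23 reads per Itgb4 read in I209S P214L cells and 0.304, 0.394 and 0.369 in P214L cells. It was 0.0838, 0.127 and 0.0915 in ETV6 WT cells and 0.932, 0.880 and 0.782 in ZsGreen cells. The ratio thus takes 3 ranges that do not overlap, with P214L cells between the ZsGreen cells above and the other 2 groups below.

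**Figure D3:**
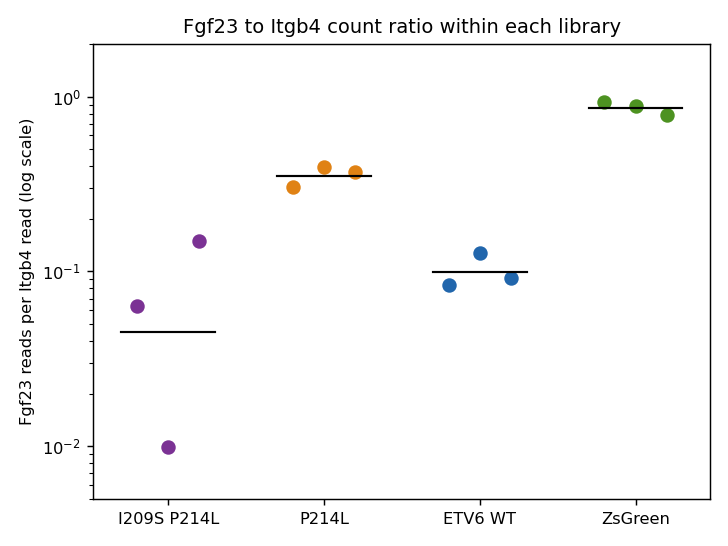
Fgf23 reads per Itgb4 read in each library, on a log axis, with groups in the order I209S P214L, P214L, ETV6 WT and ZsGreen. Points are libraries and lines are group means on the log scale. The P214L libraries, at 0.304 to 0.394, lie below the ZsGreen libraries, at 0.782 to 0.932.

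Shank3 encodes a scaffold of the postsynaptic density that links glutamate receptor complexes to the actin cytoskeleton. It had 0.161, 0 and 0.0614 CPM in I209S P214L cells (3, 0 and 1 reads), against 11.2, 8.39 and 14.4 CPM in P214L cells. It had 0.305, 0 and 0.425 CPM in ETV6 WT cells (5, 0 and 8 reads), against 23.1, 11.1 and 21.2 CPM in ZsGreen cells. Replicate 2 of each low group held no read, which at these depths allows up to 0.209 CPM in I209S P214L and 0.171 CPM in ETV6 WT. Replicate 2 of ZsGreen was at about the level of P214L, so those groups overlap.

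Shank3 fell in I209S P214L against P214L, with a log2 fold change of -7.00 ± 0.60 (SE) and an edgeR adjusted p of 6.11e-08, to 0.723% of the P214L level (0.196 to 1.86%, from 4 reads against 524). Without replicate 1 of I209S P214L, which holds 3 of those 4 reads, the change was -8.14. In P214L against ZsGreen its log2 fold change was -0.71 (95% interval -1.41 to -0.00, edgeR adjusted p = 0.277). Against ZsGreen the change in I209S P214L was -7.71 (-8.84 without replicate 1 of I209S P214L). Shank3 was 5.48 higher on the log2 scale in P214L than in ETV6 WT cells, 6.19 higher without replicate 3 of ETV6 WT and 6.07 higher by limma-voom. Its difference of -1.52 between I209S P214L and ETV6 WT rests on 4 and 13 reads and has a 95% interval of -3.61 to 0.57.

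The scaffold partners of SHANK proteins mostly rose or were not called. Of 24 listed genes 15 were tested, and 7 rose and 1 fell in I209S P214L against P214L, with a median of 0.31, while 6 rose and none passed as lower in ETV6 WT against ZsGreen. Baiap2, an actin and membrane adaptor that binds SHANK3, rose by 1.85 on the log2 scale in I209S P214L against P214L (edgeR adjusted p = 6.68e-10). Dlgap4, of the family that joins SHANK proteins to PSD-95, rose by 1.07 (2.64e-07), and Nlgn2, a neuroligin of inhibitory synapses, by 0.88 (7.46e-06). The fall was Homer1, an adaptor that links SHANK proteins to metabotropic glutamate receptors, at -0.51 (0.0105), named after its values were seen. In ETV6 WT against ZsGreen the count of falls was 1 or 2 under 12 of the 22 alternatives.

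B4galnt4 encodes a Golgi enzyme that adds N-acetylgalactosamine to N-acetylglucosamine on N-glycans, which gives the LacdiNAc ending. It had 1.07, 1.12 and 0.614 CPM in I209S P214L cells, against 16.1, 13.9 and 15.2 CPM in P214L cells. It had 1.16, 1.14 and 0.372 CPM in ETV6 WT cells, against 15.6, 16.1 and 8.36 CPM in ZsGreen cells. Replicate 3 was the lowest in each of I209S P214L, ETV6 WT and ZsGreen, and the P214L libraries overlapped those of ZsGreen. B4galnt4 fell in I209S P214L against P214L, with a log2 fold change of -4.00 ± 0.35 (SE) and an edgeR adjusted p of 7.65e-08, to 6.22% of the P214L level (4.51 to 8.39%). In P214L against ZsGreen its log2 fold change was 0.18 (95% interval -0.41 to 0.76, adjusted p = 0.803), and it was -0.08 without replicate 3 of ZsGreen. The change was -3.82 in I209S P214L against ZsGreen and 0.09 (-0.79 to 0.96) against ETV6 WT.

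The enzymes named by the rule among related glycan genes went the other way. Of 18 listed N-glycan and LacdiNAc genes 12 were tested, with 4 rises and 1 fall in each of I209S P214L against P214L and ETV6 WT against ZsGreen. B4galt1, which adds galactose where B4galnt4 adds N-acetylgalactosamine, rose by 1.76 on the log2 scale in I209S P214L against P214L (edgeR adjusted p = 1.16e-11). B4galt5, a lactosylceramide synthase, rose by 0.58 (5.1e-05), and B4galnt1, a ganglioside synthase, by 0.75 (1.11e-05). The single fall, named after its values were seen, was Mgat4a, an N-glycan branching enzyme, at -0.51 (0.0204) and -0.55 (0.012) in those comparisons. The count of falls was 0 in the first without replicate 1 or 3 of I209S P214L or replicate 1 of P214L, and 0 in the second without replicate 2 of ZsGreen.

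Csgalnact1 encodes the Golgi enzyme that adds the first N-acetylgalactosamine to the linker on proteoglycan core proteins and so starts a chondroitin sulfate chain. It had 0.537, 0.488 and 0.614 CPM in I209S P214L cells, against 6.86, 8.27 and 7.32 CPM in P214L cells. It had 0.488, 0.741 and 0.798 CPM in ETV6 WT cells, against 8.47, 11.5 and 10.5 CPM in ZsGreen cells. Its libraries within a group lay close together, and all P214L libraries were below all ZsGreen libraries, as in 12.2% of tested genes. Csgalnact1 fell by 3.76 ± 0.30 on the log2 scale (SE) in I209S P214L against P214L (edgeR adjusted p = 2.57e-08), to 7.29% of the P214L level (4.73 to 10.8%). In P214L against ZsGreen its log2 fold change was -0.44 (95% interval -0.94 to 0.06, adjusted p = 0.358). The change was -4.20 in I209S P214L against ZsGreen and -0.31 (-1.04 to 0.42) against ETV6 WT.

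Within chondroitin synthesis the loss was not shared by the whole pathway. Of 21 other listed enzymes 14 were tested, with 5 rises and 2 falls in I209S P214L against P214L and 7 rises and 2 falls in ETV6 WT against ZsGreen. Xylt1, which adds the xylose that begins the linker, fell by 0.94 on the log2 scale in I209S P214L against P214L (edgeR adjusted p = 8.55e-06), while Chst11, a chondroitin sulfotransferase, rose by 0.68 (0.000157). Csgalnact2, the sister enzyme of Csgalnact1 with the same activity, was named after its values were seen: it rose by 0.29 in I209S P214L against P214L (0.00558) and by 0.79 in ETV6 WT against ZsGreen (2.03e-07). Chst15, which adds a further sulfate to sulfated chondroitin, had 0 reads in all libraries of I209S P214L and of ETV6 WT, against 122 reads in P214L and 17 in ZsGreen cells. With a floor of 3 reads over a group it was at least 42.9-fold lower in I209S P214L than in P214L (edgeR adjusted p = 0.000173) and at least 6.05-fold lower in ETV6 WT than in ZsGreen. The 5 rises became 3 without replicate 1 or 2 of P214L. The 7 rises became 4 without replicate 3 of ZsGreen. The 2 falls of ETV6 WT against ZsGreen became 1 in the fit of only the compared groups and without replicate 3 of ETV6 WT or of ZsGreen. Of 14 proteoglycan cores 6 were tested, and none was called in I209S P214L against P214L, with 1 higher under 7 of the 22 alternatives. In ETV6 WT against ZsGreen Srgn, encoding serglycin, the main proteoglycan core of blood cell granules, rose by 0.67 (edgeR adjusted p = 9.47e-07) and Cd44 by 0.45 (4.45e-05).

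Wdr66, also named Cfap251, encodes a WD-repeat protein of the axoneme of cilia and sperm flagella. It had 1.07, 2.09 and 1.17 CPM in I209S P214L cells, against 18.5, 20.0 and 20.9 CPM in P214L cells. It had 0.855, 1.25 and 1.06 CPM in ETV6 WT cells, against 15.1, 15.2 and 17.2 CPM in ZsGreen cells. Every P214L library lay above every ZsGreen library, as in 13.5% of tested genes, and I209S P214L replicate 2 was the highest of the low libraries. Wdr66 fell by 3.79 ± 0.23 on the log2 scale (SE) in I209S P214L against P214L (edgeR adjusted p = 7.28e-10), to 7.07% of the P214L level (5.46 to 9.04%). In P214L against ZsGreen its log2 fold change was 0.32 (95% interval -0.07 to 0.71, adjusted p = 0.408). The change was -3.47 in I209S P214L against ZsGreen and 0.42 (-0.16 to 1.00) against ETV6 WT. Of 27 listed axoneme genes 24 were in the table and 7 were tested, with 1 rise and no fall in each comparison. Rsph3a, a radial spoke protein, was the rise in I209S P214L against P214L, by 0.67 (edgeR adjusted p = 0.0234), and its call was lost under limma-voom (0.0734), without replicate 2 of I209S P214L (0.23) and without replicate 1, 2 or 3 of P214L (0.0898, 0.067 and 0.0512). In ETV6 WT against ZsGreen the rise was its close relative Rsph3b, by 1.09 (0.0115), named after its values were seen, and the count was 0 without replicate 1 of ZsGreen. Reads of such near-identical genes may be split between them, so both values are uncertain.

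Transcripts of the repressor's own partners were counted too. Of 12 listed genes, corepressors reported for ETV6 together with the exportin Xpo1, all 12 were tested, with 2 rises and 2 falls in each comparison. In I209S P214L against P214L Xpo1 fell by 0.50 on the log2 scale (edgeR adjusted p = 4.93e-06), Hdac2, a histone deacetylase, fell by 0.54 (1.81e-05), and Tbl1xr1, a subunit of the NCOR complex, rose by 0.29 (0.00353). The count of rises was 1 without replicate 1 of I209S P214L or replicate 3 of P214L.

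The falls of the 6 genes were set beside the 2 nearest tested genes on each side of each, 24 neighbours that do not overlap them. Some lie far off, such as Alg10b, 664 kb past Shank3, and Nat2, 854 kb before Csgalnact1 by coordinate. In I209S P214L against P214L 3 neighbours rose and 5 fell, with a median of -0.10, where 15.9% of all tested genes were called higher and 17.1% lower. In ETV6 WT against ZsGreen 4 rose and 8 fell, with a median of -0.24, where 19.5% of all tested genes were called higher and 18.2% lower. Galk1, a galactokinase gene which begins 45 bases past the end of Itgb4 by coordinate and lies on the other strand, had a log2 fold change of -0.27 in I209S P214L against P214L (edgeR adjusted p = 0.0729) and was called lower in ETV6 WT against ZsGreen (-0.46, adjusted p = 0.00313). Tigar, 3.71 kb past Fgf23, had -0.42 (0.141) in I209S P214L against P214L and was called lower in ETV6 WT against ZsGreen (-0.55, 0.0452). In I209S P214L against P214L Psmd9, 1.97 kb before Wdr66, had -0.05 (0.809). Ccnd2, encoding cyclin D2 and 43.8 kb past Fgf23, fell by 0.30 there (0.00258).

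Of the neighbours, 1 fell as steeply as the genes themselves. Ifitm6, an interferon-induced transmembrane gene 43.2 kb before B4galnt4, averaged 0.647 ± 0.302 CPM in I209S P214L and 26.0 ± 3.06 CPM in P214L cells, and 0.844 ± 0.224 CPM in ETV6 WT and 15.7 ± 3.57 CPM in ZsGreen cells (SD, n = 3 each). Its log2 fold change was -5.34 in I209S P214L against P214L (edgeR adjusted p = 1.9e-10) and -4.22 in ETV6 WT against ZsGreen. Ifitm3, 50.3 kb before B4galnt4, fell by 0.86 (4.39e-08), while Sigirr, 18.8 kb past it, had 0.36 (0.0546) and Pkp3, 5.82 kb past it, was near the limit of detection at 0.232 to 0.699 CPM.

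**Figure D4:**
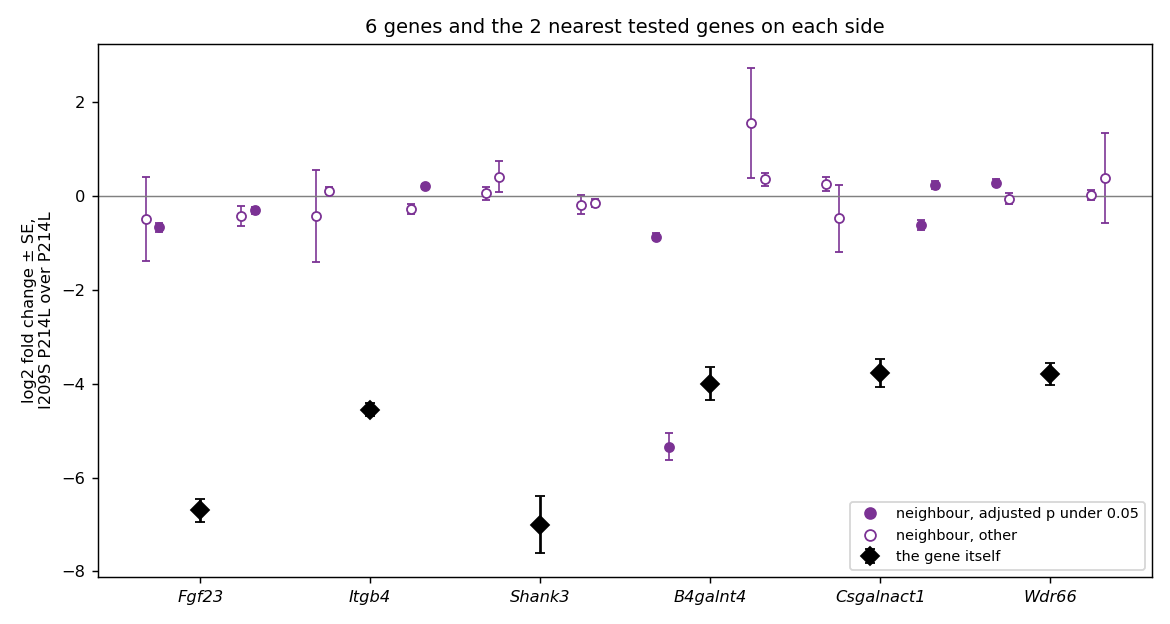
Log2 fold change with SE in I209S P214L over P214L for each of the 6 genes (black diamonds) and for the 2 nearest tested genes on each side (circles, those before the gene to its left and those past it to its right, filled where the adjusted p is under 0.05). Distances, which reach 854 kb, are not drawn. Ifitm6, 43.2 kb before B4galnt4, is at -5.34, and the other neighbours lie between -0.86 and 1.56.

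Across the 12 libraries the log2 levels of the 6 genes correlated with one another at Pearson's r of 0.924 (Shank3 and B4galnt4) to 0.985 (Fgf23 and Csgalnact1). These values describe 4 groups of libraries, low in 2 and high in 2, and the libraries share their depth and group. Among 9412 other protein-coding genes with at least 5 CPM, the 10 whose log2 level was most like the mean of the 6 were Tbrg1, Pik3cg, Id1, Ltb, Scd2, Plch1, Plekhb1, Myct1, Hcls1 and Nek6, at r of 0.995 to 0.991. Their falls in I209S P214L against P214L were smaller than those of the 6, from -0.79 (Scd2) to -3.37 (Myct1). The order depends on the measure: by Spearman's rho the 11 most alike genes, ties included, shared 0 with these 10.

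In sum, markers of neutrophils, like the 6 genes, were lower in I209S P214L and ETV6 WT cells than in P214L and ZsGreen cells. The summed level of the 15 neutrophil and monocyte markers was 22.9 to 27.6 CPM in I209S P214L and 196 to 244 CPM in P214L cells, and 29.1 to 34.2 CPM in ETV6 WT and 103 to 113 CPM in ZsGreen cells. Of the 10 tested, 10 fell in I209S P214L against P214L, 9 fell in ETV6 WT against ZsGreen and 6 rose in P214L against ZsGreen. The 6 genes did not share that last rise: Fgf23 was called lower there, Itgb4 higher, and their median log2 fold change was -0.13. The defining markers Csf3r and Ly6g had no read in any library, and Elane, Camp and Ctsg were below the filter. Megakaryocyte markers summed to 660 to 755, 844 to 908, 768 to 958 and 1033 to 1098 CPM in I209S P214L, P214L, ETV6 WT and ZsGreen cells. The part of either in the changes of the 6 genes was not tested. Erythroid markers ran the other way in sum, at 322 to 450 CPM in I209S P214L and 129 to 185 CPM in P214L cells, and at 312 to 407 CPM in ETV6 WT and 157 to 166 CPM in ZsGreen cells. Most of that difference was Hba-a1, an alpha globin, at 275 CPM in I209S P214L and 23.7 CPM in P214L cells. The 9 erythroid markers tested had 4 rises and 2 falls in I209S P214L against P214L, and 5 and 2 in ETV6 WT against ZsGreen. Hba-a1, Hbb-bs, Hbb-bt and Slc4a1 were called higher in both, with Hbb-bs at 7.06 and 4.70 on the log2 scale (edgeR adjusted p = 6.83e-07 and 1.1e-05). Hbb-bt and Slc4a1 averaged at most 2.11 CPM in any group. The 2 falls were the erythroid factors Gata1 and Klf1, named, like the other erythroid genes here and the mast cell genes below, after their values were seen. Their log2 fold changes were -0.45 and -1.10 in I209S P214L against P214L (edgeR adjusted p = 0.000824 and 2.31e-05) and -0.30 and -0.77 in ETV6 WT against ZsGreen (0.0134 and 0.000576). Mast cell markers were also higher in sum, at 2436 to 2972 CPM in I209S P214L and 1737 to 1816 CPM in P214L cells, and at 2377 to 3043 CPM in ETV6 WT and 1788 to 1884 CPM in ZsGreen cells. That sum was mostly Gata2, at 2598 CPM in I209S P214L and 1753 CPM in P214L cells, and Gata2 is not particular to mast cells. The 6 mast cell markers tested had 3 rises and 2 falls in each comparison. The rises were Gata2, Mitf and Mcpt4. Mitf and Mcpt4 had log2 fold changes of 2.37 and 4.06 in I209S P214L against P214L (edgeR adjusted p = 5.51e-09 and 0.000259). In ETV6 WT against ZsGreen they had 2.33 and 4.50 (6.04e-09 and 0.000193). The falls were Ms4a2, a chain of the IgE receptor, and Hdc, which makes histamine. Their log2 fold changes were -2.87 and -1.34 in I209S P214L against P214L (edgeR adjusted p = 0.00018 and 0.00461) and -1.52 and -1.85 in ETV6 WT against ZsGreen (0.0118 and 0.000484). Fibroblast markers summed to at most 0.508 CPM and epithelial markers to at most 0.719 CPM in any library, and T cell markers to at most 4.16 CPM. Neuron markers, with Snap25 and Gad1 at 0, summed to 49.0 to 55.7 CPM in I209S P214L and 35.6 to 36.1 CPM in P214L cells, and to 46.3 to 47.4 CPM in ETV6 WT and 30.8 to 38.1 CPM in ZsGreen cells. Nearly all of that sum was Dlg4, which is also in the SHANK scaffold list. Dlg4 averaged 50.8, 34.6, 46.2 and 34.0 CPM in those groups. Syn1, the only other neuron marker tested, averaged at most 1.14 CPM in any group.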

How the data were processed

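RNA was measured in 12 libraries, 3 in each of 4 groups taken from the labels. Per the submitters' processing notes the tools were HISAT2 2.0.5 and featureCounts 1.5.0-p3, with genome build mm39. The roles of the tools and the annotation release are not given in the sources used here, and the protocol in the labels names both a directional and a non-directional kit. The authors deposited raw read counts per gene, with gene length and position per the file headers, and these deposited counts were the only values used.

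Counts were filtered by filterByExpr of edgeR 4.0.16 (R 4.3.3), scaled by TMM, and fitted with a quasi-likelihood model of the 4 groups over all 12 libraries. P-values were adjusted by Benjamini-Hochberg over 14794 genes, and a gene was called at an adjusted p under 0.05. CPM uses TMM-scaled library sizes, and correlations use log2 CPM with a prior count of 2. Percentages of another group carry exact 95% binomial (Clopper-Pearson) intervals from summed counts, which cover counting error only, as do floors of 3 counts. Limma 3.58.1 and DESeq2 1.42.0 served as alternatives.

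The 6 genes, the 10 pathway lists and the 10 marker lists were chosen with earlier results of these data known. List genes were named by rule: up to 3 called with the smallest adjusted p in I209S P214L against P214L or, with none, in ETV6 WT against ZsGreen. List counts leave out the 6 genes. Also named were the 2 nearest tested genes on each side, the 10 genes most alike, and the genes ranked around the choice. Promoter windows are RefSeq entries of GRCm38.p6, an older build than that of the counts, and were used for sequence only.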

Additional observations from a re-analysis of the deposited data

How the results depend on the processing

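Each comparison was refitted under 22 alternatives (other scaling, filters, DESeq2, limma-voom, only the compared groups, the replicate block, leaving out libraries). All 132 log2 fold changes of the 6 genes kept direction and side of the threshold in each of I209S P214L against P214L, I209S P214L against ZsGreen and P214L against ETV6 WT. In P214L against ZsGreen 127 of 132 did: leaving out 1 library gave 1 to 2 genes called, and B4galnt4 ran from -0.079 to 0.325, below 0 only without replicate 3 of ZsGreen. In I209S P214L against ETV6 WT 8 of 131 changed sign, none past the threshold. With 1 library left out, B4galnt4 ran from -0.298 to 0.316, Fgf23 from -1.186 to 0.095 and Itgb4 from -0.249 to 0.132. Itgb4 was at 0.027 without replicate 1 of ETV6 WT and of I209S P214L together and at 0.024 without replicate 1 of ZsGreen as well. The cause was not tested. The members' median in ETV6 WT against ZsGreen, which chose them, ran from -4.1 to -3.901 with 1 library left out, and was -4.104 and -4.054 in those same joint omissions. Shank3 has no adjusted p under DESeq2 in I209S P214L against ETV6 WT and is left out there. 24 of the 25 pathway genes named by the rule kept their call under each of the 22 alternatives, and Rsph3a did not. The 25 leave out genes named after their values were seen, some of which lost or gained a call.

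Whether equal replicate numbers pair these libraries is not settled, and the main fit used no pairing. The deviations of same-numbered libraries correlated over 0.1 in all 3 pairs for no 2 groups, the highest being 0.528, 0.0786 and 0.254 for I209S P214L and ETV6 WT. Libraries of unequal number in these 2 groups correlated at -0.392 to 0.161, so some structure shared by replicate number is possible. With the replicate block the genes called stayed at 6 in I209S P214L against P214L, 2 in P214L against ZsGreen and 0 in I209S P214L against ETV6 WT. Depth limits Shank3 most, with 4 reads in all in I209S P214L and 13 in ETV6 WT.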
